A study of Mus musculus with 5 samples.

Results

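Ribosomal protein genes were examined for binding of BRG1 in mouse macrophages grown from bone marrow (BMDMs). The members are all nuclear protein-coding genes of the RefSeq annotation of mm10 (GRCm38.p6) whose symbol names a ribosomal protein. They number 162 of 21887 genes, of which 84 encode proteins of the cytosolic ribosome (symbols Rps and Rpl with a number, Rpsa, Rplp0, Rplp1 and Rplp2) and 78 encode proteins of the mitochondrial ribosome (Mrps and Mrpl). The symbol rule also takes paralogues such as Rps27l, Rpl7l1, Rpl22l1, Rpl3l and Rpl10l. A gene counted as having a peak when a summit fell between its annotated ends or at most 1 kb outside them.

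BRG1 (gene Smarca4) is a motor ATPase that lets SWI/SNF complexes move and evict nucleosomes, and BAF60a (gene Smarcd1) is one of their accessory subunits. Chromatin immunoprecipitation with an antibody against BRG1 was followed by sequencing in cells of 4 groups with 1 library each: untreated wild-type cells (WT), untreated Baf60a knockout cells (KO), and cells of both genotypes treated with oxidised low-density lipoprotein (oxLDL WT and oxLDL KO). An input library without antibody was not analysed here. The sources used here do not state how Baf60a was deleted, the oxLDL dose and time, or the mice's strain, age, sex and number. Each group has 1 library and hence no replicate spread to judge a difference by, so no test and no p-value is given. Intervals in parentheses are Wilson 95% intervals on shares and cover counting error only. They treat genes or peaks as independent, which neighbouring genes and peaks are not.

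The authors' lists hold 237 (WT), 139 (KO), 9907 (oxLDL WT) and 4668 (oxLDL KO) peaks. Read totals are not known from peak lists. All 8 macrophage marker genes examined, among them Spi1, Csf1r and Cd68, had a peak in oxLDL WT and 7 had one in oxLDL KO, against 1 of 8 (Spi1) in KO and 0 in WT. Of 5 lymphocyte markers 1 (Cd4) had a peak in oxLDL WT, of 5 neutrophil markers 1 (Mmp8), and of 5 stromal markers 0, and none of these 15 had one in oxLDL KO. The targeted gene, Smarcd1, carried 0 peaks in every list, and BRG1 peaks cannot check its deletion.

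Cytosolic ribosomal proteins are encoded in the nucleus by short, highly expressed genes. Their transcription starts at a pyrimidine tract, and the resulting messages, known as TOP mRNAs, are translated in response to growth signals. Mitochondrial ribosomal proteins are also encoded in the nucleus, are imported into mitochondria, and build the ribosome that translates the few subunits of the respiratory chain encoded by mitochondrial DNA. The cytosolic genes had a median length of 3.18 kb and the mitochondrial ones of 7.69 kb, against 17.2 kb over all protein-coding genes. Because longer genes offer more sequence for a peak, protein-coding genes of at most 10 kb were used as a closer background. There were 7926 of them, and they included 83 cytosolic and 55 mitochondrial members.

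In untreated cells no ribosomal protein gene of either class had a BRG1 peak. The count was 0 of 84 cytosolic and 0 of 78 mitochondrial genes in both WT and KO, with upper Wilson bounds of 4.37% and 4.69%. Over all protein-coding genes the share was 0.621% in WT and 0.315% in KO, and over those of at most 10 kb it was 0.252% and 0.0505%, so lists of these lengths could not show a difference.

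Under oxLDL in wild-type cells, 14 of 84 cytosolic ribosomal protein genes had a peak, 16.7% (10.2 to 26.1), and 8 of 78 mitochondrial ones, 10.3% (5.29 to 19.0). The background was 21.6% of all protein-coding genes and 9.58% of those of at most 10 kb. The cytosolic share restricted to genes of at most 10 kb was 15.7% (9.39 to 25.0), and the mitochondrial share was 9.09% (3.95 to 19.6). The mitochondrial share is thus near the background of short genes, and the lower bound of the cytosolic interval lies just below that background. Cytosolic exceeded mitochondrial genes by 6.41 percentage points, with an interval of the difference from -4.43 to 17.0, so the classes are not separated in this list.

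Under oxLDL in Baf60a knockout cells, 8 of 84 cytosolic genes had a peak, 9.52% (4.91 to 17.7), and 1 of 78 mitochondrial genes, 1.28% (0.227 to 6.91). The background in oxLDL KO was 13.1% of all protein-coding genes and 5.10% of those of at most 10 kb. The class difference was 8.24 percentage points, with an interval from 0.961 to 16.5. Among genes of at most 10 kb, 7 of 83 cytosolic (8.43%, 4.15 to 16.4) and 0 of 55 mitochondrial genes had a peak, the latter with an upper Wilson bound of 6.53%. From oxLDL WT to oxLDL KO the number of genes with a peak went down for cytosolic members in the ratio 0.571, for mitochondrial members in the ratio 0.125, for all protein-coding genes in the ratio 0.607 and for short ones in the ratio 0.532. The cytosolic ratio changed with the limit on peaks, and the cause was not tested. With a −log10 q of at least 2 it was 0.889 (9 against 8 genes), against 0.632 over all protein-coding genes and 0.540 over short ones. At a limit of 5 it was 1.00 (1 against 1), against 0.427 and 0.306. With as many oxLDL WT peaks as the oxLDL KO list holds (the 4668 of lowest p, a setting chosen after the data were seen) it turned to 2.0, with 4 cytosolic genes in oxLDL WT and 8 in oxLDL KO, against 1.09 over all protein-coding genes and 1.08 over short ones. The mitochondrial ratio was then 0.20, with 5 genes against 1.

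**Figure D1:**
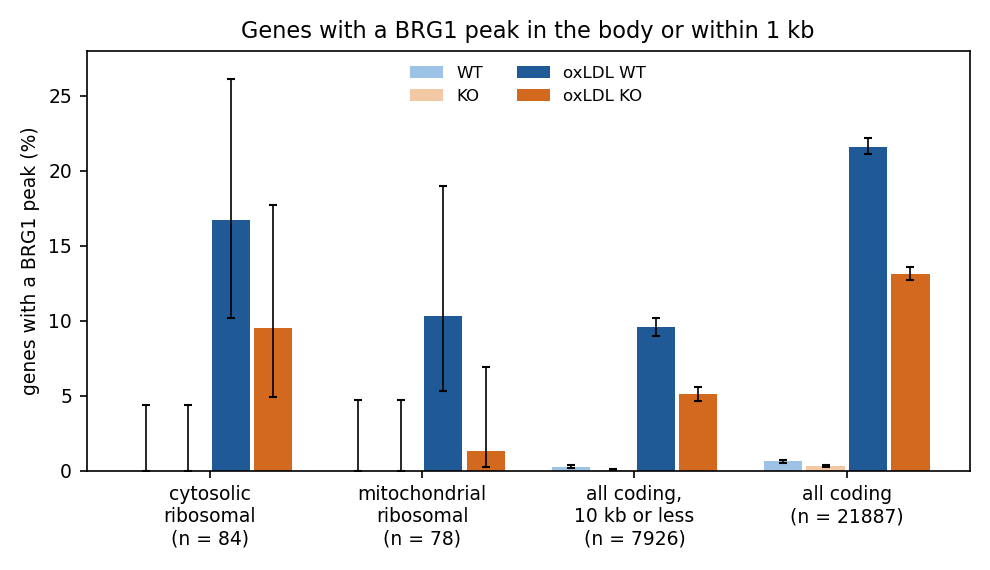
Share of genes with a BRG1 peak in the body or within 1 kb (y axis, percent) for the 84 cytosolic and 78 mitochondrial ribosomal protein genes, protein-coding genes of at most 10 kb and all protein-coding genes, in each of the 4 libraries; bars are shares and lines are Wilson 95% intervals. Both ribosomal classes are at 0 in untreated WT and KO, and the mitochondrial class has 1 gene in oxLDL KO.

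The class order in oxLDL WT turned in the shortened list too. There 4.76% of cytosolic and 6.41% of mitochondrial genes had a peak, against 12.1% of all protein-coding genes and 4.73% of those of at most 10 kb. At a −log10 q of at least 5, 1 gene was left in each class in oxLDL WT (Rpl19 and Mrpl1) and only Rps15a in oxLDL KO. The shares over all protein-coding genes and over short ones at this limit were 7.09% and 2.35% in oxLDL WT and 3.02% and 0.719% in oxLDL KO.

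Small-subunit genes of the cytosolic ribosome had a peak in 8 of 32 cases in oxLDL WT, 25.0% (13.3 to 42.1), and large-subunit genes in 6 of 52, 11.5% (5.40 to 23.0). In oxLDL KO these counts were 4 of 32 (12.5%, 4.97 to 28.1) and 4 of 52 (7.69%, 3.03 to 18.2). For the mitochondrial ribosome the order was the other way, with 2 of 29 small-subunit genes (6.90%, 1.91 to 22.0) and 6 of 49 large-subunit genes (12.2%, 5.73 to 24.2) in oxLDL WT. The backgrounds are those given above, 21.6% of all and 9.58% of short genes in oxLDL WT and 13.1% and 5.10% in oxLDL KO. The cytosolic small-subunit share is thus near the share of all genes in both libraries. The closer background of short genes lies below its interval in the full oxLDL WT list (9.58% against 13.3 to 42.1). In oxLDL KO that background lies just inside the interval (5.10% against 4.97 to 28.1). The intervals of small and large subunits overlap in both classes. With a −log10 q of at least 2, Rps3a1, Rps14, Rps20 and Rps27l were left of the cytosolic small subunit in oxLDL WT. Rpl7l1, Rpl10a, Rpl19, Rpl28 and Rpl37 were left of the large one (background 18.4% of all and 7.92% of short genes). In the shortened list only Rps14 was left beside Rpl10a, Rpl19 and Rpl28 (12.1% and 4.73%), so the small-subunit share was no longer the higher one.

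The peaks themselves were modest. Fold enrichment is the authors' value for each peak, the fragment pileup at the summit over the local background, and serves here only for description and ranking inside each list. The 14 cytosolic peaks in oxLDL WT ran from 2.75 to 4.41 with a median of 3.46, and the 10 mitochondrial ones from 2.62 to 6.93 with a median of 3.71, against a median of 3.75 for the 7330 peaks at all protein-coding genes. Pileups recovered from the deposited values were 13 to 20 fragments for the cytosolic peaks and 14 to 32 for the mitochondrial ones. Of the 14 cytosolic peaks, 11 lay in the lower 3 fold quintiles of the list, as did 8 of the 10 mitochondrial and 4403 of the 7330 background peaks. In oxLDL KO the 8 cytosolic peaks ran from 3.39 to 5.20 with a median of 3.83, close to the 3.85 over all protein-coding genes.

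Among the small-subunit genes with a peak in oxLDL WT alone, Rps14 (chromosome 18, summit 60774907) had the highest fold enrichment at 3.99, from 18 fragments over a background of 3.76. Rps3a1 (chromosome 3, summit 86142373) and Rps20 (chromosome 4, summit 3835450) both had 3.57, from 16 fragments each. Equal values arise because pileups are whole numbers over the same library-wide background. Rps27l, a paralogue of Rps27 that p53 can induce, had 3.36 (chromosome 9, summit 66946418). Lower values were found at Rps24 (3.15, chromosome 14, summit 24490942), Rps10 (2.76, chromosome 17, summit 27634947) and Rps13 (2.75, chromosome 7, summit 116333875). None of these 7 genes had a peak in oxLDL KO, WT or KO.

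Large-subunit genes with a peak in oxLDL WT alone were Rpl10a (3.99, chromosome 17, summit 28328392), Rpl28 (3.74, chromosome 7, summit 4793202), Rpl37 (3.57, chromosome 15, summit 5116308) and the Rpl7 paralogue Rpl7l1 (3.19, chromosome 17, summit 46782322). The Rpl37 summit lay 305 bp upstream of the gene and is also within 1 kb of Card6, which encodes a caspase recruitment domain protein. Its place relative to the 2 genes does not show which of them the peak belongs to.

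Peaks in oxLDL KO alone were found at 5 cytosolic genes. Rps19, the gene most often mutated in Diamond-Blackfan anaemia, had 3.39 (chromosome 7, summit 24884787). Rpl38 (chromosome 11, summit 114669946) and Rpl15 (chromosome 14, summit 18270722) both had 4.30, from 18 fragments over a background of 3.42. The Rpl15 summit is also in reach of Nkiras1, which encodes an inhibitor-binding Ras-like protein of the NF-kB pathway.

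Cytosolic genes with a peak in both oxLDL lists numbered 3, and in none of them did the summits coincide. Rps15a (chromosome 7, 118104374 to 118116147) had 2.94 in oxLDL WT, from 13 fragments, and 5.20 in oxLDL KO, from 22 fragments, the highest cytosolic value in either list. Its summits at 118115526 and 118115848 were 322 bp apart, and the 2 peaks shared 1 bp. Rpl18 (chromosome 7, 45715467 to 45720835) had 2.94 and 3.61, with summits 1015 bp apart and no shared base, and the sphingosine kinase gene Sphk2 is in reach of both. Rpl19 (chromosome 11, 98022003 to 98030493) had 4.41 and 4.03, with summits 4593 bp apart. The oxLDL WT summit of Rpl19 lay inside the annotated gene, 703 bp from its nearer end and in reach of the calcium channel gene Cacnb1. The oxLDL KO summit lay 375 bp downstream of a start listed further inside.

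Mitochondrial ribosomal protein genes had a single site with peaks in both lists. At Mrpl48 (chromosome 7, 100545779 to 100608301) oxLDL WT had 2 peaks, with 3.90 (summit 100607954) and 3.34 (summit 100608452). A single oxLDL KO peak with 4.51 (summit 100608362) overlapped both, by 218 and 164 bp. The same 3 summits are in reach of Rab6a, which encodes a Golgi trafficking GTPase.

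The other 7 mitochondrial genes had peaks in oxLDL WT alone. Mrpl1 (chromosome 5, 96209498 to 96266727) had the strongest peak of all members, with 6.93 at summit 96222014, 32 fragments and a width of 1552 bp. It lay 11899 bp downstream of the nearest start, inside the gene, and a second Mrpl1 peak with 3.78 lay 404 bp upstream of the gene. Mrpl52 (3.99, chromosome 14, summit 54426701), Mrpl32 (3.78, chromosome 13, summit 14613530) and Mrps35 (3.64, chromosome 6, summit 147043144) followed. Mrpl2 (3.55, chromosome 17, summit 46650432), Mrps33 (3.15, chromosome 6, summit 39810429) and Mrpl55 (2.62, chromosome 11, summit 59201918) had the lowest values. The Mrpl32 summit is also in reach of the proteasome subunit gene Psma2, and the Mrpl2 summit is in reach of the cullin gene Cul7 and lies 300 bp beyond the end of Mrpl2 that is far from its start.

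**Figure D2:**
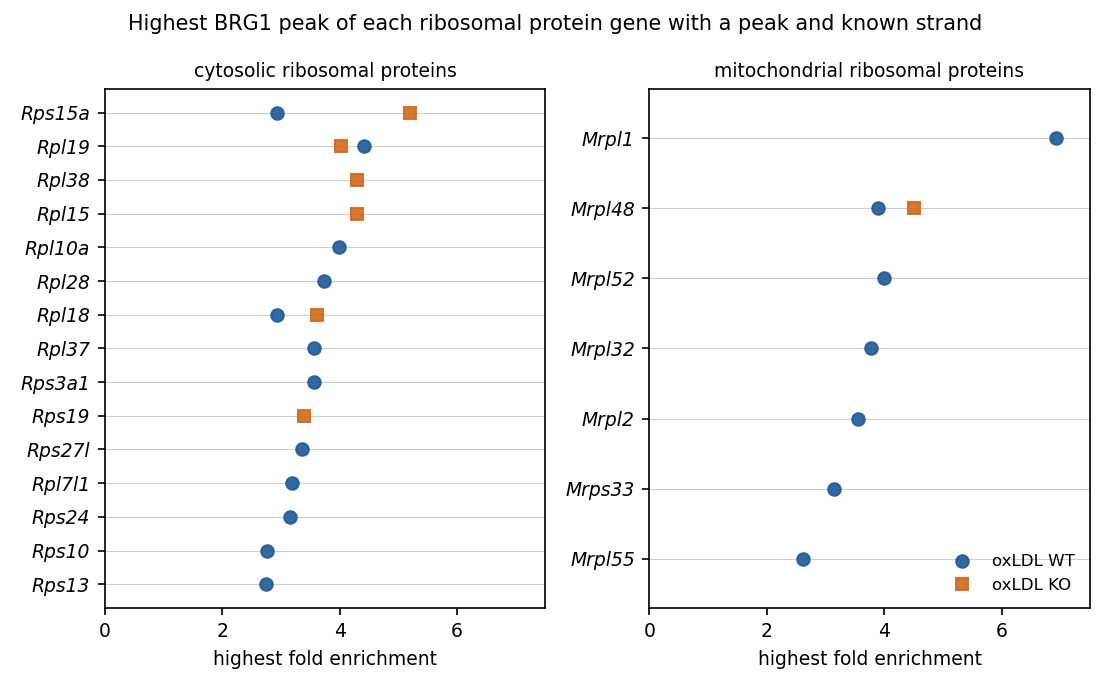
Highest fold enrichment of a BRG1 peak (x axis, the authors' value, no unit) for each ribosomal protein gene of known strand with a peak in oxLDL WT (blue circles) or oxLDL KO (orange squares); a missing marker means that the list holds no peak there. Only Rps15a, Rpl19, Rpl18 and Mrpl48 carry both markers, and Mrpl1 in oxLDL WT is highest at 6.93.

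Some member peaks also lay in reach of another protein-coding gene. This held for 3 of 14 cytosolic peaks (21.4%, 7.57 to 47.6) and 4 of 10 mitochondrial peaks (40.0%, 16.8 to 68.7) in oxLDL WT, against 7.94% of the 7330 peaks at protein-coding genes. That background lies inside the cytosolic interval and below the mitochondrial one, and 2 of the 4 mitochondrial peaks are those at the Mrpl48 and Rab6a site.

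Few oxLDL WT peaks at ribosomal protein genes were found again in the knockout. Counting a shared base as overlap, 1 of 14 cytosolic peaks was overlapped by an oxLDL KO peak, 7.14% (1.27 to 31.5), and 2 of 10 mitochondrial peaks were, 20.0% (5.67 to 51.0). The background was 29.2% of the 7330 oxLDL WT peaks at protein-coding genes and 27.1% at genes of at most 10 kb. Both backgrounds lie inside the mitochondrial and the cytosolic interval, so lower retention is not shown for either class. The single cytosolic overlap is the base that the 2 Rps15a peaks share, and the count was 0 of 14 when summits had to lie within 300 bp (23.7% of background peaks) or when at least 50% of the oxLDL WT peak had to be covered (19.2%).

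Higher oxLDL WT peaks were retained more often. Over all protein-coding genes it was 17.0% in the lowest fold quintile of oxLDL WT peaks and 49.4% in the highest. At the fold quintiles of the 14 cytosolic peaks the background averaged 23.9%, and at those of the 10 mitochondrial peaks 26.6%. The part of peak height in the members' retention was not tested. The highest member peak, at Mrpl1, was among those with no counterpart.

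Seen from the knockout, peaks at cytosolic ribosomal protein genes mostly lacked a wild-type counterpart. Of 8 oxLDL KO peaks at cytosolic genes 1 was overlapped by an oxLDL WT peak, 12.5% (2.24 to 47.1), against a background of 62.1% of the 3566 oxLDL KO peaks at protein-coding genes and 59.7% at those of at most 10 kb. Both backgrounds lie above that interval. At the fold quintiles of these 8 peaks the background averaged 61.0%. The median distance from these 8 summits to the nearest oxLDL WT summit was 16.4 kb, against 0.422 kb for peaks at genes of at most 10 kb. The count rests on 8 peaks of 1 library.

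Counted by gene rather than by peak, 3 of the 14 cytosolic genes with an oxLDL WT peak also had one in oxLDL KO (21.4%, 7.57 to 47.6), and 1 of the 8 mitochondrial genes (12.5%, 2.24 to 47.1). The background was 47.6% of all protein-coding genes and 37.4% of those of at most 10 kb. Of the 8 cytosolic genes with an oxLDL KO peak the same 3 had one in oxLDL WT, 37.5% (13.7 to 69.4), against 78.3% of all protein-coding genes and 70.3% of short ones. Other genes of translation, listed further below, had like shares of oxLDL WT genes with an oxLDL KO peak. These were 27.3% for ribosome assembly (3 of 11), 22.2% for cytosolic (2 of 9) and 25.0% for mitochondrial translation factors (1 of 4). Low sharing is thus not particular to ribosomal protein genes.

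**Figure D3:**
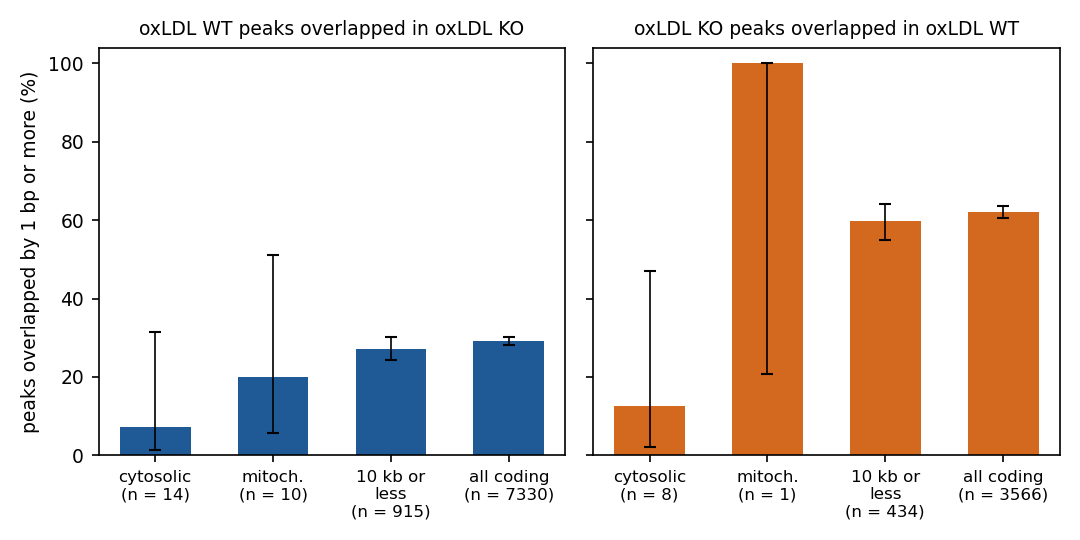
Share of peaks that share at least 1 bp with a peak of the other oxLDL library (y axis, percent), for oxLDL WT peaks (left) and oxLDL KO peaks (right) at cytosolic and mitochondrial ribosomal protein genes, genes of at most 10 kb and all protein-coding genes; lines are Wilson 95% intervals. For cytosolic genes 7.14% of oxLDL WT and 12.5% of oxLDL KO peaks are overlapped, and the mitochondrial bar on the right is 1 peak.

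Summits at the cytosolic genes tended to lie a short way inside the gene. Strand and starts were taken from the RefSeq promoter table of GRCm38.p6, which matched 64 cytosolic and 69 mitochondrial members, and distances are from the nearest of the listed starts and the outer 5′ end of the gene. Of 12 cytosolic summits with a known strand in oxLDL WT, 8 lay 1 to 500 bp downstream of a start (66.7%, 39.1 to 86.2), 2 lay up to 500 bp upstream and 2 lay farther away. In oxLDL KO, 4 of 6 lay 1 to 500 bp downstream. Across peaks at protein-coding genes of at most 10 kb 35.5% of oxLDL WT summits and 39.2% of those in oxLDL KO lay there, and the first of these backgrounds is below the cytosolic oxLDL WT interval. Measured from the outer 5′ end alone, a setting added after the data were seen, the cytosolic counts were 7 of 12 (58.3%, 32.0 to 80.7) and 3 of 6, and the short-gene background of 32.3% in oxLDL WT lay inside the interval, so the separation from it is then lost. These distance limits were set after the positions had been seen.

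Several cytosolic summits lay at like distances. They were 295 bp at Rps3a1, 297 at Rps10, 315 at Rps13, 293 at Rpl18, 334 at Rpl7l1, 237 at Rpl28 and 189 at Rps24 in oxLDL WT. In oxLDL KO they were 299 bp at Rps15a, 264 at Rpl15, 375 at Rpl19 and 111 at Rps19. The other summits with a known strand lay elsewhere. In oxLDL WT they were 5 bp downstream at Rps27l, 621 at Rps15a and 703 at Rpl19, and 79 bp upstream at Rpl10a and 305 at Rpl37. In oxLDL KO the Rpl38 summit lay 1366 bp downstream and the Rpl18 summit 1296 bp upstream of the nearest start, the latter inside the gene. Summits between 100 and 400 bp downstream made up 7 of 12 cytosolic summits in oxLDL WT (58.3%, 32.0 to 80.7). For genes of at most 10 kb they made up 27.6%, and this stretch is the most populated one there too. The stretch was also set after the positions had been seen, so this share only describes these summits. Rps14 and Rps20 have no strand here, and their oxLDL WT summits lay inside the gene, 311 and 205 bp from the nearer end.

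Mitochondrial summits just upstream of a start were more frequent than summits just downstream. Of 9 with a known strand in oxLDL WT, 5 lay up to 500 bp upstream (55.6%, 26.7 to 81.1) and 0 lay 1 to 500 bp downstream, where a count of 0 has an upper Wilson bound of 29.9%. The background was 8.92% upstream and 30.1% downstream over all protein-coding genes, and 16.5% and 35.5% over those of at most 10 kb, though 4 of the 9 summits are at Mrpl1 and Mrpl48, which are longer. The upstream distances were 151 bp and 332 bp at Mrpl48, 208 at Mrpl52, 404 at Mrpl1 and 493 at Mrpl32, and Mrpl55 followed at 568. The 332 bp at Mrpl48 is from a second listed start, and the same summit lies 347 bp inside the outer end of the gene. Both Mrpl48 summits are also in reach of Rab6a and the Mrpl32 summit is in reach of Psma2. Their place upstream of a member does not show which gene the peak belongs to. Measured from outer ends alone, 4 of 9 lay upstream (44.4%, 18.9 to 73.3), against 6.07% over all genes and 14.5% over short ones. Downstream lay 1 (11.1%, 1.99 to 43.5), against 22.9% over all genes and 32.3% over short ones, so a lower downstream share is not shown. Mrps33 had its summit 507 bp downstream, just outside the limit.

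Promoter sequences of the members are shown for the genes on which these results turn. Each runs 5′ to 3′ on the strand of the gene, from 250 bases before the listed start to 50 bases from it on, so that the start is base 251, and comes from RefSeq on GRCm38.p6. Capitals mark matches on either strand to the letters CCGGAAG (ETS factors), GAGGAAGT (PU.1), GGGCGG (SP and KLF factors), TGACGTCA (CRE), CACGTG (E-box), AAGATGG (YY1), TATAAA (the site of the TBP protein), and CTCTTTCC or CTTTTTCC (pyrimidine tract). The NRF1 consensus was searched as well and has no match in the promoters shown. The ETS and PU.1 letters share the core GGAAG. A match is a description of letters and not of a bound site.

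The first group holds cytosolic genes whose summit lay downstream of the start, outside the window printed: Rpl28 (chr7:4792715-4793014, + strand), with CTCTTTCC beginning at the start itself, base 251, Rps3a1 (chr3:86142619-86142918, − strand), with CCGGAAG at bases 242 to 248, and Rps15a (chr7:118116098-118116397, − strand), the member with the highest oxLDL KO peak of its class.
Rpl28: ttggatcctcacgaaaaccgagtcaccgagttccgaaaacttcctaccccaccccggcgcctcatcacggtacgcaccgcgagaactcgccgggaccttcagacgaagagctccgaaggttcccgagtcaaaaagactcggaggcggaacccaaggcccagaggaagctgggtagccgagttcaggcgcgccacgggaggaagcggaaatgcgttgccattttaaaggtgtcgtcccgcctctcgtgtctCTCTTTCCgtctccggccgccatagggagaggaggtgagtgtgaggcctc
Rps3a1: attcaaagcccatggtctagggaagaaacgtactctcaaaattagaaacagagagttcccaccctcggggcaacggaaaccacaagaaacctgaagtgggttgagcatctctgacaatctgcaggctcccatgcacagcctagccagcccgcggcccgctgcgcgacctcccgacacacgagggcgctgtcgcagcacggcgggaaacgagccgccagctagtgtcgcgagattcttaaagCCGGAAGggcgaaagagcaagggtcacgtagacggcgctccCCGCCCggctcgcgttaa
Rps15a: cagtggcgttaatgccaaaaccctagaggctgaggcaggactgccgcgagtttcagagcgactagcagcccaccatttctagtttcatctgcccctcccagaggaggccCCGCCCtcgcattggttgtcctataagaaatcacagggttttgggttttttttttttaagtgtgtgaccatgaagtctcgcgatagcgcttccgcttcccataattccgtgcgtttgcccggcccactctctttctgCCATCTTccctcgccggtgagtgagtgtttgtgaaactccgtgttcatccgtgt

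The second group holds genes with a summit inside the printed window: Rpl10a (chr17:28328221-28328520, + strand), with the oxLDL WT summit at base 172, Mrpl48 (chr7:100608252-100608551, − strand), with the oxLDL WT summit at base 100 and the oxLDL KO summit at base 190, and Mrpl52 (chr14:54426659-54426958, + strand), with the oxLDL WT summit at base 43.
Rpl10a: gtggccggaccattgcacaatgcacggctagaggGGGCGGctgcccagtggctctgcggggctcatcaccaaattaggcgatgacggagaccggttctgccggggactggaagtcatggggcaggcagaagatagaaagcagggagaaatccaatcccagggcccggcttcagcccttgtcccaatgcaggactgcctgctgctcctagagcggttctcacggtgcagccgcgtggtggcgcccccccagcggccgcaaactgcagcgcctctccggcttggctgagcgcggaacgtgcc
Mrpl48: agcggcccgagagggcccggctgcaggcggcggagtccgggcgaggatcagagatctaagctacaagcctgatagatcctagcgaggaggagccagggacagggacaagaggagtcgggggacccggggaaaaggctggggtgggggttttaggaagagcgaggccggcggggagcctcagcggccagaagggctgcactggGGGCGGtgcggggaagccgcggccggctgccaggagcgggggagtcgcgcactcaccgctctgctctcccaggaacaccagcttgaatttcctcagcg
Mrpl52: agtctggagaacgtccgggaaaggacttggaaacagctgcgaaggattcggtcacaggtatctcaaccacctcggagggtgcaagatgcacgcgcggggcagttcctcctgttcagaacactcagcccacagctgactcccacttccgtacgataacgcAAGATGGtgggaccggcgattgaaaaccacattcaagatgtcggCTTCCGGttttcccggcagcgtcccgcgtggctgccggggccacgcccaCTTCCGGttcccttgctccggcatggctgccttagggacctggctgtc
Mrpl52 holds the ETS letters in reverse at bases 204 to 210 and 253 to 259 and the YY1 letters at bases 160 to 166, while Rpl10a and Mrpl48 hold only the SP and KLF letters, at bases 35 to 40 and 203 to 208.

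Both classes shared some letters and differed in others. With the listed start that lies farthest 5′ for each gene, the ETS letters were in 39.1% of 64 cytosolic promoters (28.1 to 51.3) and 34.8% of 69 mitochondrial promoters (24.6 to 46.6), against 11.9% of 17492 protein-coding promoters. The YY1 letters were in 15.6% and 18.8%, against 6.35%. The pyrimidine tract was in 18.8% of cytosolic promoters (11.1 to 30.0) and 1.45% of mitochondrial ones (0.256 to 7.76), against 4.71%. The PU.1 letters were in 4.69% and 1.45%, against 3.14%.

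Few promoters belong to members with an oxLDL peak. The ETS letters were in 7 of 15 cytosolic promoters of genes with a peak in either oxLDL list, the pyrimidine tract in 3 of 15 and the PU.1 letters in 0 of 15. Of 7 mitochondrial promoters of such genes, 2 held the ETS letters and 0 the pyrimidine tract. The SP and KLF letters were in 12 of the 15 and 6 of the 7, against 59.4% of all cytosolic, 49.3% of all mitochondrial and 46.3% of all protein-coding promoters.

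Other genes of translation were followed for comparison. Of 40 ribosome assembly genes, 27.5% (11 genes, 16.1 to 42.8) had an oxLDL WT peak and 15.0% (6 genes, 7.06 to 29.1) an oxLDL KO peak, near the 21.6% and 13.1% over all protein-coding genes. Both lists held peaks at Ubtf, which encodes a factor of RNA polymerase I (4.79 in oxLDL WT and 3.19 in oxLDL KO), at Eif6, which keeps the subunits apart (4.62 and 4.07), and at Wdr12, needed for the large subunit (3.26 and 5.31). Rrp9 (4.41), Polr1a (3.99) and Utp3 (3.99) had a peak in oxLDL WT alone and Rrn3 (4.07) in oxLDL KO alone.

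Of 40 cytosolic translation factor genes, 22.5% (9 genes, 12.3 to 37.5) had an oxLDL WT peak and 17.5% (7 genes, 8.75 to 31.9) an oxLDL KO peak. Both lists held Eif5b, which joins the subunits (5.04 and 3.85), and Etf1, the release factor (4.20 and 3.62). Eif4h had a peak in oxLDL KO alone (4.53), and Eif1a (3.99), Eif3i (3.99) and Eif2s2 (3.90) in oxLDL WT alone. Of 39 mitochondrial translation genes, 10.3% (4 genes, 4.06 to 23.6) had an oxLDL WT peak and 7.69% (3 genes, 2.65 to 20.3) an oxLDL KO peak. Fars2, a mitochondrial aminoacyl-tRNA synthetase gene, was in both (6.09 and 4.75), Iars2 (3.78) and Mtrf1l (2.97) in oxLDL WT alone, and Ears2 and Yars2 (3.39 each) in oxLDL KO alone. In none of these 3 lists did an untreated library have a peak. Over all protein-coding genes the share was 0.621% in WT and 0.315% in KO, so gene lists this short could not show a difference.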

How the data were processed

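BRG1 ChIP-seq peak lists of 4 libraries, 1 per group, were used, and groups were taken from the sample titles. Chromatin was cut enzymatically, per the labels' protocols, so fragment ends follow nuclease cuts. The submitters' processing notes name MACS3, Bowtie2, Trimmomatic 0.33 and bcl2fastq 2.17 with the build mm10, and no parameters. The authors deposited 1 list per library, so peaks were not called on pooled samples. Each deposited peak has a fold enrichment (a ratio of pileup to local background), −log10 p and −log10 q values as the authors gave them, a summit offset, and a score that was not used here. The sources used here do not say whether the input served as control.

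Summits (peak start plus offset) were assigned to RefSeq genes of GRCm38.p6, the assembly of mm10, by position, with a flank of 1 kb. Overlap meant at least 1 bp. Pileups were solved from fold enrichment and p with a pseudocount of 1, for peaks whose values allowed it, and came out whole, within 2% of the step between neighbouring pileups, for 99.9% of those in both oxLDL lists. No member peak had a background over 5 times the lowest of its list. In the promoter table, 766 of 766 overlapping opposite-strand windows matched as reverse complements. Scripts used Python 3.11.15, pandas 2.3.3 and scipy 1.17.1 and were tested on simulated data.

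Members, gene lists and motifs were chosen with earlier results of these data known. Members with a peak in any list are named, except some whose values are not reported here. Related genes are named by fold enrichment, at most 4 with peaks under oxLDL in both genotypes and at most 4 with peaks in 1. One listed gene, Mtrfr, did not match a symbol. No peak of any list lies on X or Y, and 4 cytosolic members lie on X.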

Additional observations from a re-analysis of the deposited data

How the results depend on the processing

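Of 97 alternative values, 74 stayed within the interval of the reported share (ratios: within 1.5 times), 20 moved outside it and 3 changed direction. Those that stayed include the shares in untreated WT and KO, which were 0 in every setting. A setting that only takes away peaks or sequence could not change a share of 0, so the 74 are no measure of stability. With peaks limited to a −log10 q of 5 or more, 1.19% of cytosolic genes had a peak in oxLDL WT and also 1.19% in oxLDL KO. Mitochondrial genes had 1.28% and 0%, while the share over all protein-coding genes was 7.09% and 3.02%. The class difference in oxLDL WT was -0.0916 percentage points. Retention at this limit was 0% in both classes, of 1 peak each, against 16.9% of the oxLDL WT peaks at all protein-coding genes. With oxLDL WT shortened to the length of oxLDL KO, chosen after seeing the data, the cytosolic share was 4.76% and the class difference -1.65 percentage points. With gene bodies alone, mitochondrial shares were 5.13% in oxLDL WT and 0% in oxLDL KO, against 19.3% and 11.9% of all protein-coding genes and 7.34% and 3.81% of those of at most 10 kb. The ratio of genes with a peak, oxLDL KO over oxLDL WT, was for cytosolic genes 0.889 both at the common −log10 p limit and with −log10 q at or above 2. It was 1.00 for them with −log10 q at or above 5 and 2.0 at equal length. For mitochondrial genes it was 0 with gene bodies alone and with −log10 q at or above 5, and 0.20 with a flank of 2 kb and at equal length. Over all protein-coding genes the ratio was 0.640 at the common limit, 0.632 and 0.427 at the 2 limits on q, and 1.09 at equal length. There it was 0.613 with gene bodies alone and 0.605 with a flank of 2 kb. Cytosolic retention was also 0% at a −log10 q of at least 2 (0 of 9 peaks), against 29.3% of oxLDL WT peaks at all protein-coding genes. The same count, 0 of 9, was found at a −log10 p of at least 5.33, the highest of the lowest values of the 4 lists, against 29.5%. With 50% coverage and with summits within 300 bp it was 0 of 14 each, against 19.2% and 23.7%. The cause of these moves was not tested, beyond fewer peaks being left under stricter limits. The class difference in oxLDL KO stayed within its interval under all alternatives run, but that interval, 0.961 to 16.5 percentage points, is wide. The strictest limit on q left 1.19 points, from 1 of 84 cytosolic and 0 of 78 mitochondrial genes. Summits near gene ends alone gave 4.67 points (5 of 84 and 1 of 78). Gene bodies alone gave 9.52 and a flank of 2 kb gave 9.34. Staying inside so wide an interval is therefore no measure of a stable difference. No paired analysis was possible because each group has 1 library and the labels carry no replicate numbers, and for the same reason no library could be left out. Read depth is not known from peak lists.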

Other observations

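Many cytosolic ribosomal protein genes carry small nucleolar RNA (snoRNA) genes in their introns, which guide the modification of ribosomal RNA. By the RefSeq annotation, 30 of 84 cytosolic and 1 of 78 mitochondrial genes hold a snoRNA gene. In oxLDL WT, 4 of the 30 hosts had a BRG1 peak (13.3%, 5.31 to 29.7), namely Rps3a1, Rps20, Rps13 and Rpl37, against 10 of the 54 other cytosolic genes (18.5%, 10.4 to 30.8). In oxLDL KO the counts were 1 of 30 (3.33%, 0.591 to 16.7) and 7 of 54 (13.0%, 6.42 to 24.4). The intervals overlap in both libraries. This comparison was chosen after the data were seen.

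The promoters of both classes were alike in base composition. Their median GC content was 57.0% for cytosolic and 58.3% for mitochondrial members, near the 56.3% over all protein-coding promoters. The median number of CpG dinucleotides in the 300 bases was 21.0 for cytosolic and 21.0 for mitochondrial members, against 13.0 over all protein-coding promoters. It was 23.0 for the 15 cytosolic and 23.0 for the 7 mitochondrial promoters of genes with an oxLDL peak, against 21.0 without one in both classes. The median GC content with a peak was 60.3% for cytosolic and 61.7% for mitochondrial promoters, against 56.3% and 58.0% without.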
